A study of Populus qamdoensis and Populus schneideri with 18 samples.

Results

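The comparison described here set *P. qamdoensis* against *P. schneideri*, both as leaves that GEO's labels place under blue light quality, named BF after the study's blue film. It is defined by species and light label alone, though it was chosen with earlier results of these data known. It holds 3 libraries of each species, 6 of the 18 RNA-seq libraries of the series. The other 12 libraries carry the same species under white (colorless film, WF) and green (green film, GF) light quality, 3 per species and film. The study's methods describe only *P. qamdoensis*, grown as cuttings under the films, with the leaves of separate plants for each library. For *P. schneideri* the labels give species, tissue and light quality, with no duration of treatment and no statement that replicates are separate plants. Whether its plants were cuttings under the same films is not stated in the sources used here. The p-values rest on the spread between libraries, which may therefore in part be technical. That spread was estimated for each gene over all 18 libraries together, not for each species.

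Plants read blue light mainly through cryptochromes. In *Arabidopsis*, light-activated cryptochrome CRY1 restrains COP1, a ubiquitin ligase that otherwise marks the transcription factor HY5 for degradation, while PIF factors, which are partners of phytochromes, promote elongation growth. Sucrose and starch enzymes, auxin enzymes and wall-degrading glucanases act further downstream in leaf growth and defence, and these are the roles by which the genes are ordered here.

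Expression was deposited as FPKM, fragments scaled by gene length and by the mapped fragments of the library, for 39194 genes. Genes averaging under 0.5 FPKM over the 18 libraries were set aside, and 24273 were tested. Differences are *P. qamdoensis* minus *P. schneideri* on the log2(FPKM + 1) scale, a scale that understates changes of low genes, and a differentially expressed gene (DEG) is one that limma placed at 1.5-fold or more with an adjusted p (Benjamini-Hochberg) under 0.01. Reads of both species were aligned to the *P. yunnanensis* genome, so a difference in expression and a difference in how well a species' reads map to that genome cannot be told apart, and neither can fewer cells of a type and less RNA per cell. Genes with near-identical copies are uncertain for the same reason, since the counting of shared, overlapping or antisense reads is not given in the sources used here.

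The 6 libraries did not separate by species alone. Across the tested genes Pearson's r of log2(FPKM + 1) was 0.879 to 0.942 within *P. qamdoensis* BF and 0.977 to 0.989 within *P. schneideri* BF, against 0.867 to 0.941 between the species. *P. qamdoensis* BF replicate 1 stood farthest apart, with r of 0.867 to 0.881 to each of the other 5 libraries. The median SD of a gene was 0.33 in *P. qamdoensis* BF and 0.16 in *P. schneideri* BF on the log2 scale, and 0.23 in *P. qamdoensis* BF replicates 2 and 3 alone. Results are therefore given with all libraries and without replicate 1. In the WF and GF groups the median SD was 0.13 to 0.20. Since limma shared an estimate of each gene's spread over all groups, the p-values under BF also rest on these groups, which varied less than *P. qamdoensis* BF. Leaf identity could be checked only with chloroplast genes: protochlorophyllide reductase, a chlorophyll synthesis enzyme, ranged from 16.8 to 43.8 FPKM in *P. qamdoensis* BF and from 20.5 to 26.0 FPKM in *P. schneideri* BF, and the 3 antenna protein genes summed to 440 to 925 FPKM in *P. qamdoensis* BF and 473 to 660 FPKM in *P. schneideri* BF. The 6 genes listed by the study under photosynthesis summed to 34.6 to 77.5 FPKM in *P. qamdoensis* BF. In *P. schneideri* BF they summed to 21.4 to 40.9 FPKM, so the species overlapped. None of these genes was listed at 0, and no markers of other leaf cell types are annotated in the sources used here.

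Under BF, 1339 of 24273 genes (5.52%) were DEGs between the species by limma with Benjamini-Hochberg adjustment. Of these, 582 (2.4% of genes tested) were higher and 757 (3.12%) lower in *P. qamdoensis*, and the median difference over all genes tested was -0.06. The larger number of lower genes depended on the scaling: there were 680 higher and 665 lower with median-ratio scaling, and 684 higher and 733 lower with quantile normalization. Libraries of the species did not overlap in 1336 of the 1339 DEGs, and in 24% of all genes tested. Without *P. qamdoensis* BF replicate 1 there were 1893 DEGs (7.8%), 955 higher and 938 lower in *P. qamdoensis*. All 1339 genes kept their direction in that fit and 1100 of them were again DEGs. The number of DEGs depended on which libraries entered the fit: it was 2032 without *P. qamdoensis* BF replicate 2, 725 without *P. schneideri* BF replicate 1 and 852 without *P. schneideri* BF replicate 3. When only the 6 BF libraries were fitted, without sharing an estimate of the spread with the WF and GF groups, 117 genes were DEGs, all 117 of them among the 1339 and in the same direction. The same fit without replicate 1 gave 426 DEGs, of which 277 were among the 1339 in the same direction. With 3 libraries against 3, an exact two-sided permutation test of a single gene cannot go below 0.1 and was not used.

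**Figure D1:**
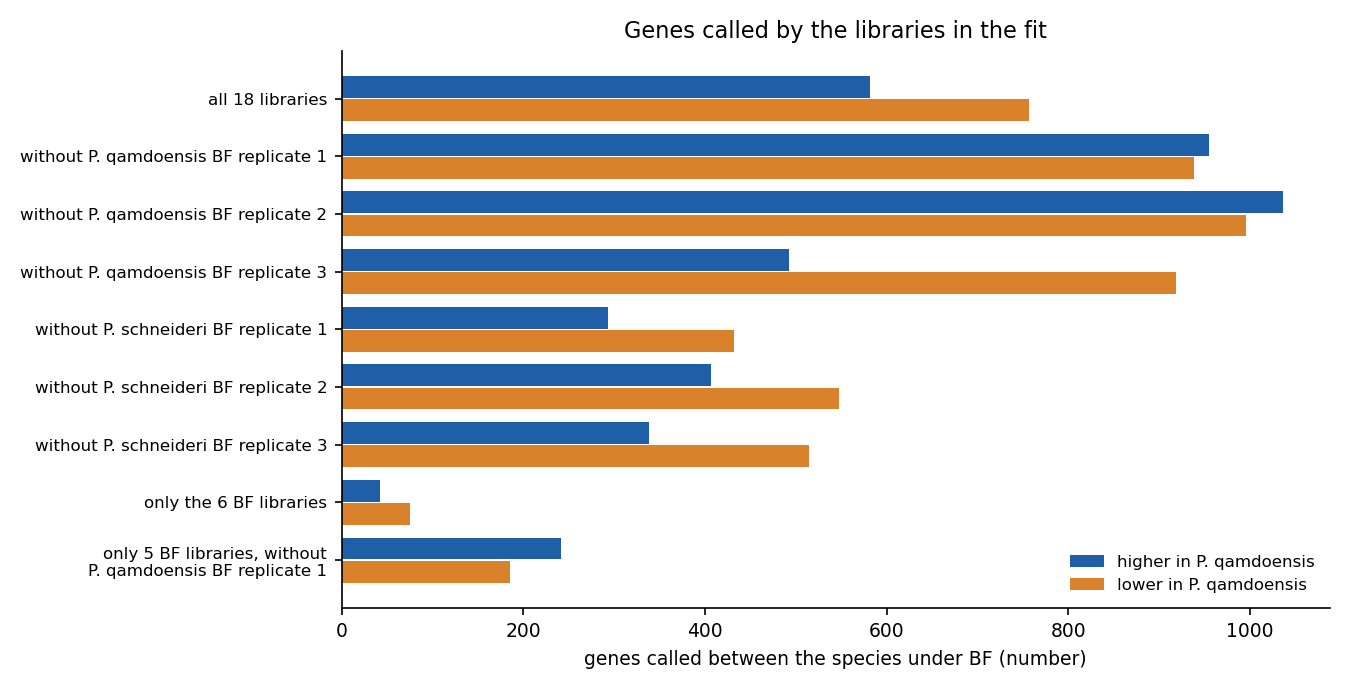
Number of DEGs between *P. qamdoensis* and *P. schneideri* under BF (x axis, genes) with all 18 libraries, with each BF library left out in turn, and with the BF libraries alone. Bars give genes higher and lower in *P. qamdoensis*. The total was 1339 with all libraries, 2032 without *P. qamdoensis* BF replicate 2 and 117 in the 6 BF libraries alone.

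The widest differences were between genes read in one species and at or near 0 in the other. Pyun13G009350 had 52.4, 79.4 and 35.2 FPKM in *P. qamdoensis* BF and was listed at 0 in the 3 *P. schneideri* BF libraries. Pyun17G011370 had 221, 20.5 and 51.4 FPKM in *P. qamdoensis* BF, against 0.62, 0.776 and 0 FPKM in *P. schneideri* BF. In the other direction, Pyun10G018510 had 0, 0 and 0.0621 FPKM in *P. qamdoensis* BF, against 89.2, 57.4 and 89.1 FPKM in *P. schneideri* BF. Its neighbour in gene number, Pyun10G018500, was listed at 0 in every *P. qamdoensis* BF library and had 49.7, 35.7 and 48.6 FPKM in *P. schneideri* BF. These genes carry no functional name in the sources used here. All 4 were called with and without replicate 1, and were also DEGs in the same direction under WF and GF. Over the whole table, 22 genes were listed at 0 in every *P. schneideri* BF library with at least 1 FPKM in every *P. qamdoensis* BF library, and 14 of them showed the same pattern under WF and GF. The reverse pattern, 0 in every *P. qamdoensis* BF library and at least 1 FPKM in every *P. schneideri* BF library, held for 50 genes, 29 of them also under WF and GF. Without *P. qamdoensis* BF replicate 1 the numbers were 85 and 72 genes. Genes that the authors' assembly added to the reference annotation were DEGs in 95 of 824 cases (11.5%), 28 higher and 67 lower in *P. qamdoensis*, beside 1244 of 23449 reference genes (5.31%).

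The species differences under BF were compared with those under WF and GF, whose means share no library with them. All came from the same fit with the same estimate of each gene's spread, so the sets of DEGs are not independent of each other. Under WF 1425 genes (5.87%) and under GF 1138 genes (4.69%) were DEGs between the species, or 2298 and 1892 in the fit without *P. qamdoensis* BF replicate 1. Leaving out *P. schneideri* WF replicate 2 gave the fewest WF DEGs, 837, and leaving out *P. qamdoensis* GF replicate 1 the fewest GF DEGs, 661. Of the 1339 BF DEGs, 713 were also WF DEGs in the same direction, which is 53.2% of the BF DEGs and 50.04% of the WF DEGs. A further count of 660 were also GF DEGs in the same direction, 49.3% of the BF DEGs and 58.0% of the GF DEGs. No BF DEG was a DEG in the opposite direction under either film. In all 3 films 589 genes were DEGs in the same direction, 227 higher and 362 lower in *P. qamdoensis*. Across genes, which are not independent replicates, Pearson's r between the species differences was 0.66 for BF and WF and 0.66 for BF and GF, or 0.76 and 0.77 without *P. qamdoensis* BF replicate 1.

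**Figure D2:**
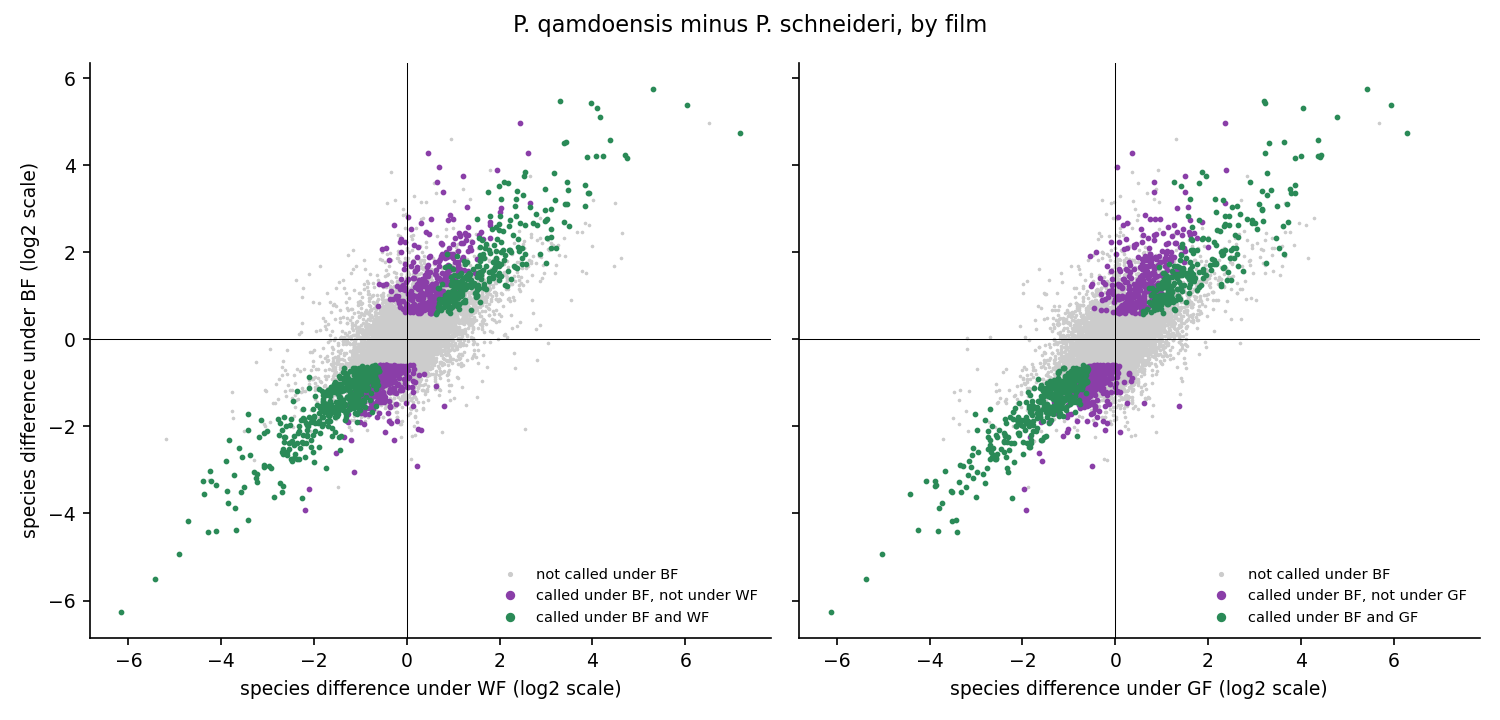
Species difference of each tested gene under BF (y axis) against the difference under WF (left) and GF (right), *P. qamdoensis* minus *P. schneideri* on the log2(FPKM + 1) scale. Green points are the 713 and 660 genes called in both films of a panel, purple points the remaining BF DEGs and grey points the other genes; no gene called under BF was called in the opposite direction in the other film.

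A DEG in one film and not in another is not thereby shown to differ between the films, so the difference between species differences was tested. Under BF alone, 555 genes were DEGs, 279 higher and 276 lower in *P. qamdoensis*. Of them 0 passed the limma interaction test against WF or GF, with 249 and 289 at an unadjusted p below 0.05. These genes were chosen for a call under BF and none under WF or GF, and the interaction contains those same differences. The 249 and 289 are therefore not independent evidence of a difference between films. Over all genes, 2 passed for BF against WF and 0 for BF against GF, where 2492 and 2407 genes had an unadjusted p below 0.05. Pyun04G012190 had 13.4, 12.4 and 13.0 FPKM in *P. qamdoensis* BF and 12.5, 13.4 and 11.8 FPKM in *P. schneideri* BF, so the species overlapped. Under WF it had 6.20, 5.82 and 6.25 FPKM in *P. qamdoensis* and 15.3, 13.4 and 13.2 FPKM in *P. schneideri*. Pyun06G019200 had 0.0591, 0.475 and 0.423 FPKM in *P. qamdoensis* BF and 0.0414, 0.0717 and 0.0188 FPKM in *P. schneideri* BF. Under WF, where its species difference was a DEG, it had 5.76, 7.77 and 6.40 FPKM in *P. qamdoensis*, against 0.0838, 0 and 0.0303 FPKM in *P. schneideri*. Neither gene was a DEG between the species under BF. Without *P. qamdoensis* BF replicate 1, 6 and 2 genes passed against WF and GF. Pyun14G007110, listed by the study under amino sugar and nucleotide sugar metabolism, was 1 of the 2 against GF and the other was a gene the assembly added, newGene_2514, both chosen after their values were seen. Without *P. qamdoensis* BF replicate 2, 213 genes passed against WF and 120 against GF. Of these, 8 and 7 belonged to the 78 tested genes of the study's annotation that are grouped by role here, the glucanase Pyun16G005170 among them in both cases. Leaving out any other single library gave 1 to 3 genes against WF and 0 or 1 against GF.

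No light signalling gene passed the test: 0 of 8 were DEGs under BF by limma, with all libraries and without replicate 1, beside 5.52% of all genes. At an unadjusted p below 0.05 there were 3 with all libraries and 1 without replicate 1, where 29.1% and 28.4% of all genes passed. Their median difference was -0.22, or -0.26 without replicate 1, beside -0.06 over all genes tested. The blue-light receptor CRY1 had 55.5, 57.1 and 72.8 FPKM in *P. qamdoensis* BF and 49.9, 66.1 and 49.4 FPKM in *P. schneideri* BF, and the species overlapped (difference 0.16 ± 0.13 SE). HY5, the transcription factor that promotes light-grown development, had 53.4, 59.6 and 88.2 FPKM in *P. qamdoensis* BF and 77.9, 74.0 and 66.5 FPKM in *P. schneideri* BF. Its difference of -0.15 ± 0.18 was smaller than its error. COP1, the ligase that marks HY5, had 17.8, 11.03 and 15.3 FPKM in *P. qamdoensis* BF, against 19.1, 17.9 and 15.4 FPKM in *P. schneideri* BF. HYH, the homolog of HY5, differed by -0.34 ± 0.13, the red-light receptor gene PHYB by -0.18 ± 0.15 and PIF4 by -0.17 ± 0.11, none with an adjusted p below 0.08. The widest value in the group belonged to PIF3 (Pyun14G009100), a repressor of light-grown development in *Arabidopsis* seedlings. It had 5.19, 9.30 and 6.07 FPKM in *P. qamdoensis* BF, against 17.1, 11.8 and 10.6 FPKM in *P. schneideri* BF, without overlap. The difference of -0.86 ± 0.21 missed the threshold (limma, adjusted p = 0.0119), as it did without replicate 1 (-0.71, adjusted p = 0.038). A second PIF3 gene, Pyun14G008760, differed by -0.48 ± 0.21 and its libraries overlapped.

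**Figure D3:**
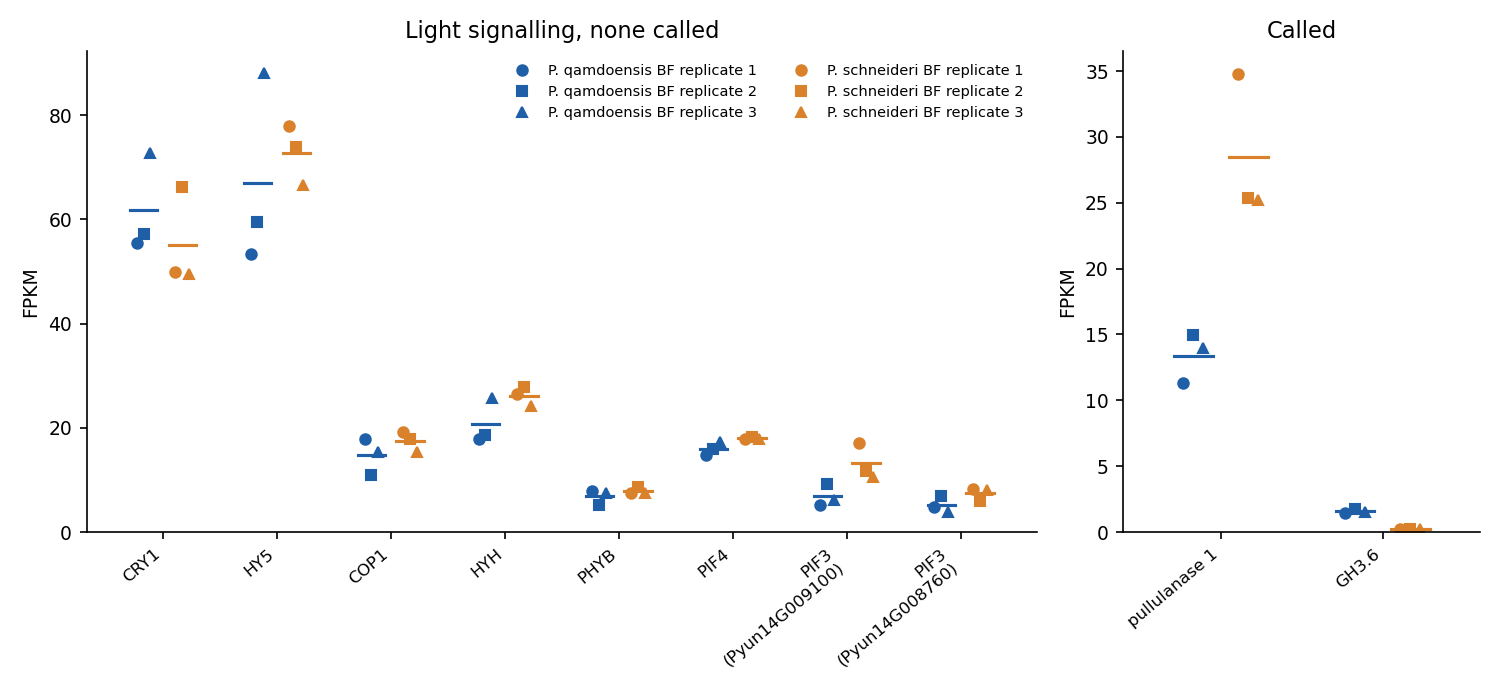
FPKM of the 8 light signalling genes (left) and of pullulanase 1 and GH3.6 (right) in each BF library (y axis, FPKM, starting at 0). Points are libraries and bars group means, *P. qamdoensis* in blue and *P. schneideri* in orange; the species overlap in most light signalling genes, and the *P. qamdoensis* libraries of pullulanase 1, at 11.3 to 14.9 FPKM, lie below those of *P. schneideri*, at 25.2 to 34.8 FPKM.

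Among enzymes of sucrose cleavage and of starch, 1 of 9 genes tested was a DEG, beside 5.52% of all genes. With so few genes, this count is not a result about the group. Pullulanase 1, a debranching enzyme that cuts the branch points of starch, was lower in *P. qamdoensis*. It had 11.3, 14.9 and 13.9 FPKM in *P. qamdoensis* BF, against 34.8, 25.4 and 25.2 FPKM in *P. schneideri* BF. No library overlapped, and the difference was -1.03 ± 0.18 (limma, adjusted p = 0.00158), or -0.92 without replicate 1 (adjusted p = 0.0047). In the fit of the 6 BF libraries alone it was not called (limma, adjusted p = 0.0463), nor when replicate 1 was also left out. Under WF and GF the difference was -0.45 and -0.12, neither a DEG, and the interaction tests did not separate BF from them (adjusted p = 0.46 and 0.31). Isoamylase 2, glucan phosphorylase L and both large subunits of ADP-glucose pyrophosphorylase, the enzyme that feeds starch synthesis, had differences between -0.34 and 0.14, or between -0.34 and 0.42 without replicate 1, and overlapping libraries. Sucrose synthase 2, which splits sucrose, had 3.59, 1.497 and 7.504 FPKM in *P. qamdoensis* BF and 0.86, 1.66 and 1.18 FPKM in *P. schneideri* BF. Replicate 2 of *P. qamdoensis* lay inside the *P. schneideri* range, and the adjusted p was 0.0362. Insoluble beta-fructofuranosidase, a cell wall invertase, had 17.6, 11.9 and 27.5 FPKM in *P. qamdoensis* BF and 5.86, 12.7 and 5.88 FPKM in *P. schneideri* BF. Its difference of 1.13 ± 0.35 was not called under BF (adjusted p = 0.0406) and was called under WF (1.78, adjusted p = 0.0029). Sucrose synthase 6 was likewise not called, at 14.1, 1.22 and 9.78 FPKM in *P. qamdoensis* BF and 0.427, 3.95 and 0.455 FPKM in *P. schneideri* BF.

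Glucan hydrolases held most of the DEGs among the named enzymes. Of 17 tested, 9 were higher in *P. qamdoensis* under BF and 0 lower, beside 2.4% higher over all genes. Without replicate 1 the counts were also 9 and 0, where 955 of 24273 genes were higher. These were not all the same genes, since Pyun01G024530 lost its call in that fit. Pyun06G004350, a glucan endo-1,3-beta-glucosidase, gained one (1.56, limma adjusted p = 0.0029). The median difference of the 17 was 2.57, or 2.50 without replicate 1, against 0.47 under WF and 0.59 under GF, and the 2 members listed at 0 throughout *P. schneideri* BF lay above that median. The study chose these genes on film comparisons that included the *P. qamdoensis* BF libraries, so the count is not independent evidence of a direction. In the fit of the 6 BF libraries alone 4 of the 17 were DEGs, and 6 when replicate 1 was also left out.

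The first set consisted of beta-glucosidases, enzymes that cut glucose from small glucosides, and related glycoside hydrolases. The 6 that were called were read in *P. qamdoensis* and almost unread in *P. schneideri*. The glycoside hydrolase Pyun19G002470 had 31.6, 37.7 and 86.2 FPKM in *P. qamdoensis* BF, against 0.163, 0.181 and 0 FPKM in *P. schneideri* BF. The difference was 5.43 ± 0.31 (limma, adjusted p = 1.32e-08), or 5.71 without replicate 1. Its mean in *P. qamdoensis* was 51.8 FPKM under BF, 15.4 under WF and 9.06 under GF, with a species difference of 3.97 under WF and 3.23 under GF, and the interaction tests did not pass (adjusted p = 0.25 and 0.13). Beta-glucosidase 12-like (Pyun01G021350) had 8.61, 8.43 and 19.2 FPKM in *P. qamdoensis* BF and was listed at 0 in every *P. schneideri* BF library. Beta-glucosidase Pyun04G009930 had 7.07, 7.43 and 21.4 FPKM in *P. qamdoensis* BF and was also listed at 0 in every *P. schneideri* BF library. In the 6 called genes of this set *P. qamdoensis* BF replicate 3 was the highest library for each gene, and none of the 6 overlapped between the species. Glycoside hydrolase Pyun01G021560 had 11.1, 9.42 and 16.1 FPKM in *P. qamdoensis* BF, against 0.0685, 0.163 and 0 FPKM in *P. schneideri* BF. Its difference was 3.59 ± 0.18 (limma, adjusted p = 4.02e-09), and 2.17 under WF and 1.79 under GF. Glycoside hydrolase Pyun01G021550 differed by 3.75 ± 0.29 and beta-glucosidase 12 (Pyun04G009900) by 2.57 ± 0.36, both called with and without replicate 1. Of these 6 genes, all but Pyun04G009900 were also DEGs under WF and GF. Pyun01G021550 and Pyun01G021560 are neighbours in gene number, and reads shared by such copies could have been split between them. Glycoside hydrolase Pyun01G039570 went the other way and was not called, with 0.0487, 1.21 and 6.28 FPKM in *P. qamdoensis* BF and 3.57, 10.7 and 3.21 FPKM in *P. schneideri* BF, overlapping (-1.25 ± 0.71).

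The second set, glucan endo-1,3-beta-glucosidases, cut callose and fungal wall glucan and are known as pathogenesis-related proteins. They were read in both species, and the *P. qamdoensis* BF libraries differed widely from each other. Pyun16G005170, a basic isoform, had 80.2, 11.6 and 153 FPKM in *P. qamdoensis* BF, against 1.22, 5.48 and 1.93 FPKM in *P. schneideri* BF. The difference was 3.96 ± 0.66 (limma, adjusted p = 0.00093), or 3.66 without replicate 1 (adjusted p = 0.0029). Under WF its means were 0.947 FPKM in *P. qamdoensis* and 0.209 FPKM in *P. schneideri*, under GF 0.969 and 1.11 FPKM, with no DEG in either film. The interaction adjusted p was 0.21 against both films with all libraries, and 0.0011 against WF without *P. qamdoensis* BF replicate 2, the lowest library of that group. Pyun01G024520 had 39.6, 35.0 and 243 FPKM in *P. qamdoensis* BF, against 11.5, 16.3 and 7.32 FPKM in *P. schneideri* BF (2.54 ± 0.56, limma adjusted p = 0.00759). Pyun01G024530 had 19.4, 2.91 and 51.8 FPKM in *P. qamdoensis* BF, against 0.943, 2.81 and 1.21 FPKM in *P. schneideri* BF (2.67 ± 0.61, limma adjusted p = 0.00873). With 1 library left out at a time, Pyun01G024520 was called in 6 of 18 fits and Pyun01G024530 in 1 of 18, and the call of Pyun01G024530 was lost without replicate 1 (adjusted p = 0.022). Pyun16G005160, the neighbour of Pyun16G005170, had 46.0, 1.88 and 38.1 FPKM in *P. qamdoensis* BF and 0.322, 3.54 and 1.17 FPKM in *P. schneideri* BF, overlapped and was not called (adjusted p = 0.0174). The unnamed gene Pyun10G013510, listed by the study under starch and sucrose metabolism, had the same order of libraries with 104, 4.82 and 67.0 FPKM in *P. qamdoensis* BF, against 0.291, 1.32 and 0.85 FPKM in *P. schneideri* BF (4.29 ± 0.79, limma adjusted p = 0.00196).

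**Figure D4:**
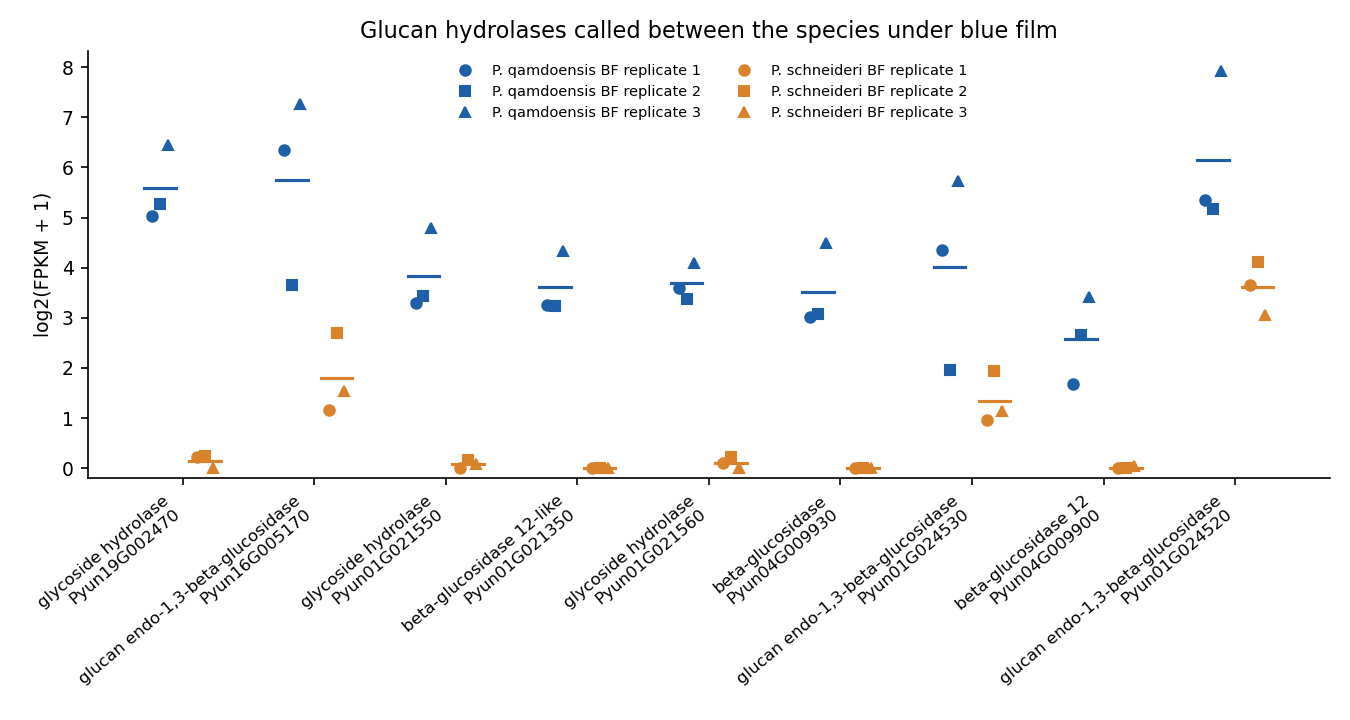
log2(FPKM + 1) of the 9 glucan hydrolases called under BF in each BF library (y axis), in falling order of the species difference. Points are libraries and bars group means, *P. qamdoensis* in blue and *P. schneideri* in orange; the beta-glucosidases and glycoside hydrolases lie at or near 0 in *P. schneideri*, and *P. qamdoensis* BF replicate 2 (square) is the lowest of its group in the 3 glucan endo-1,3-beta-glucosidases shown.

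Of 4 auxin genes, 1 was a DEG, beside 5.52% of all genes tested, a count too small to describe the group. GH3.6 belongs to the enzymes that join auxin to amino acids and was higher in *P. qamdoensis*, with 1.47, 1.72 and 1.51 FPKM in *P. qamdoensis* BF, against 0.231, 0.209 and 0.246 FPKM in *P. schneideri* BF. The libraries of each species were close together, and the difference of 1.06 ± 0.16 (limma, adjusted p = 0.000474) was called without replicate 1 as well (1.09). In the fit of the 6 BF libraries alone the difference was not called (limma, adjusted p = 0.0287), nor when replicate 1 was also left out. Under WF it was 0.33 and under GF 0.32, neither a DEG, with interaction adjusted p of 0.27 and 0.36. The auxin-responsive gene SAUR50, called under GF (-1.40), had 11.3, 4.20 and 4.96 FPKM in *P. qamdoensis* BF and 7.49, 5.61 and 8.73 FPKM in *P. schneideri* BF and was not called. GH3.1 had 3.16, 0.868 and 5.78 FPKM in *P. qamdoensis* BF and 0.532, 1.67 and 0.756 FPKM in *P. schneideri* BF and was not called.

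Cytokinin genes (4), gibberellin and growth regulators (7), MYB-type regulators (5) and chlorophyll genes (6) held 0 DEGs under BF by limma, with and without replicate 1. Over all genes 5.52% were DEGs, or 7.8% without replicate 1, so with so few genes these counts are not a result about the groups. At an unadjusted p below 0.05, passed by 29.1% of all genes, there were 4, 2, 1 and 3 genes with all libraries. Their median differences were -0.73, 0.04, -0.16 and -0.51 in that order. Without replicate 1 they were -0.52, -0.25, -0.34 and -0.46, so the median of the gibberellin and growth regulators changed sign. Pheophorbide a oxygenase, which opens the chlorophyll ring during breakdown, had 57.1, 46.8 and 94.3 FPKM in *P. qamdoensis* BF and 107, 182 and 91.2 FPKM in *P. schneideri* BF, with an overlap of 1 library of each species. Chlorophyllase-1, which removes the phytol tail of chlorophyll, had 22.3, 0.952 and 5.75 FPKM in *P. qamdoensis* BF and 0.471, 1.03 and 0.755 FPKM in *P. schneideri* BF. Replicate 1 was its highest *P. qamdoensis* library, and the difference was 1.96 with it and 1.06 without it, neither called. Histidine kinase 3a, a cytokinin receptor, had 14.7, 12.3 and 22.2 FPKM in *P. qamdoensis* BF, against 26.9, 35.3 and 24.8 FPKM in *P. schneideri* BF, without overlap and with an adjusted p of 0.0385.

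Resistance-protein annotations included 2 DEGs among 9 genes, 1 in each direction, beside 5.52% of all genes. Both were named TMV resistance protein N after the tobacco receptor for tobacco mosaic virus. Pyun19G002000 had 2.87, 0.242 and 0.467 FPKM in *P. qamdoensis* BF, against 5.03, 4.59 and 3.75 FPKM in *P. schneideri* BF. The difference was -1.50 ± 0.30 (limma, adjusted p = 0.00355), -2.01 without replicate 1, and it was a DEG in the same direction under WF (-1.93) and GF (-1.80). Pyun19G001930 had 3.54, 0.725 and 1.05 FPKM in *P. qamdoensis* BF, against 0.0906, 0.216 and 0.0998 FPKM in *P. schneideri* BF (1.15 ± 0.26, limma adjusted p = 0.0087). That call held in 3 of 18 fits with a library left out, among them the fit without replicate 1, where the difference was 0.73. Over all 78 named role genes tested, 12 were higher and 2 lower in *P. qamdoensis*, beside 2.4% and 3.12% of all genes. The glucan hydrolases made up 9 of the higher genes. Without replicate 1 the counts were 13 and 2, beside 7.8% of all genes in both directions together. The median difference was 0.18, or 0.14 without replicate 1. Most of these genes came from the study's annotation of its film DEGs, which used the *P. qamdoensis* BF libraries, so the counts are not independent evidence of a direction.

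The study's pathway lists from WF against GF were made without any BF library. Together, the lists given in full held 104 tested genes, of which 9 were higher and 6 lower in *P. qamdoensis* under BF, where 2.4% and 3.12% of all genes were. Without replicate 1 the counts were 14 and 7, beside 7.8% of all genes in both directions together. The median difference was 0.19, or 0.10 without replicate 1. The 23 tested plant-pathogen interaction genes included 4 higher and 2 lower DEGs, beside 5.52% of all genes. Without replicate 1 they included 6 and 2, beside 7.8%. Pyun11G006910 had 0, 0.329 and 0.821 FPKM in *P. qamdoensis* BF, against 33.0, 29.7 and 20.9 FPKM in *P. schneideri* BF (-4.40 ± 0.23, limma adjusted p = 4.99e-09), and was a DEG under WF and GF. Pyun16G000930 had the largest value of the list, with 1.75, 145 and 305 FPKM in *P. qamdoensis* BF, against 0.776, 0.962 and 0.794 FPKM in *P. schneideri* BF. Replicate 1 lay far below the other *P. qamdoensis* libraries, so the difference was 4.75 ± 1.10 with it and 6.84 without it, and the call (limma, adjusted p = 0.00972) held in 1 of 18 fits with a library left out, the one without replicate 1. The other 4 DEGs of this list were Pyun16G008580 (2.03), Pyun17G001200 (1.68), Pyun17G001170 (1.23) and Pyun11G006630 (-1.93), named after their values were seen.

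Beside the counts of the next lists, 5.52% of all genes were DEGs, or 7.8% without replicate 1. Flavonoid biosynthesis, the pathway of flavonols and anthocyanins, held 2 lower and 0 higher DEGs among 16 genes tested, with and without replicate 1. The median difference was -0.09, and -0.62 without that library. Pyun12G002380 had 0, 3.55 and 3.80 FPKM in *P. qamdoensis* BF, against 46.7, 18.6 and 44.0 FPKM in *P. schneideri* BF (-3.64 ± 0.45, limma adjusted p = 6.18e-05), or -2.90 without replicate 1, and it was a DEG under WF (-2.27) and GF (-2.22). Pyun12G002620, named after its values were seen, had 0.0953, 6.26 and 6.92 FPKM in *P. qamdoensis* BF, against 57.1, 24.5 and 53.4 FPKM in *P. schneideri* BF. In both genes *P. qamdoensis* BF replicate 1 was the lowest library. Glycolysis and gluconeogenesis held 1 DEG among 9, Pyun18G012190, with 4.79, 4.31 and 3.81 FPKM in *P. qamdoensis* BF, against 17.5, 13.3 and 17.04 FPKM in *P. schneideri* BF (-1.67 ± 0.15, limma adjusted p = 2.35e-06), called in every fit with a library left out and in the 6 BF libraries alone. Phenylpropanoid biosynthesis held 2 higher DEGs among 13, and starch and sucrose metabolism 3 higher among 16 (4 without replicate 1), the 3 with all libraries being glucan hydrolases or Pyun10G013510 named above. Photosynthesis (6 genes), the circadian rhythm (8), oxidative phosphorylation (6) and galactose metabolism (6) held 0 DEGs by limma with and without replicate 1, with 0, 3, 0 and 1 at an unadjusted p below 0.05 and medians of 0.60, -0.15, 0.29 and 0.19. Without replicate 1 the medians were 0.37, -0.32, -0.08 and 0.10, so that of oxidative phosphorylation changed sign.

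The lists the study made from BF against GF were chosen on the *P. qamdoensis* BF libraries and lay higher in *P. qamdoensis* as a whole: 26 of 143 tested genes were higher and 3 lower (2.4% and 3.12% over all genes), with a median difference of 0.98. Without replicate 1 the counts were 21 and 5 and the median 0.63, while the same genes had medians of -0.01 under WF and 0.09 under GF. Pyun16G012200, under phenylalanine metabolism, had 65.2, 13.2 and 15.6 FPKM in *P. qamdoensis* BF, against 3.70, 3.03 and 3.58 FPKM in *P. schneideri* BF (2.50 ± 0.38, limma adjusted p = 0.000469), or 1.79 without replicate 1. Pyun13G000370, under cysteine and methionine metabolism, had 77.8, 26.1 and 56.8 FPKM in *P. qamdoensis* BF, against 11.5, 14.2 and 9.91 FPKM in *P. schneideri* BF (1.97 ± 0.27, or 1.63 without replicate 1). Pyun14G007110, under amino sugar metabolism, had 4.45, 18.2 and 28.6 FPKM in *P. qamdoensis* BF, against 0, 0.0604 and 0 FPKM in *P. schneideri* BF. In that gene the difference of 3.84 ± 0.39 was 4.55 without replicate 1, where it also exceeded the WF difference by 2.00 (limma interaction, adjusted p = 0.0015) and the GF difference by 2.68 (adjusted p = 6.61e-05).

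For the single lists that follow, the share of DEGs over all genes was 5.52%, or 7.8% without replicate 1. In flavonoid biosynthesis (23 genes, 4 higher and 1 lower, or 2 and 1 without replicate 1) the median difference was 0.98, or 0.50 without replicate 1. The largest difference belonged to Pyun04G013140, with 6.29, 1.49 and 2.84 FPKM in *P. qamdoensis* BF, against 52.2, 29.1 and 44.0 FPKM in *P. schneideri* BF (-3.34 ± 0.36), also a DEG under WF and GF. In brassinosteroid biosynthesis, the pathway of a growth steroid, 1 of 6 genes was a DEG. This gene, Pyun03G003090, had 6.80, 21.3 and 16.5 FPKM in *P. qamdoensis* BF, against 38.5, 39.5 and 45.3 FPKM in *P. schneideri* BF (-1.53 ± 0.26, or -1.09 without replicate 1), with differences of -0.36 under WF and -0.22 under GF. Cyanoamino acid metabolism held 7 higher DEGs among 13, led by Pyun19G002470, and 8 higher and 1 lower without replicate 1. Several calls in the aromatic lists rested on *P. qamdoensis* BF replicate 1. Pyun07G009480, leading the phenylalanine, tyrosine and tryptophan list (4 higher of 9, or 3 without replicate 1), had 20.1, 1.95 and 12.1 FPKM in *P. qamdoensis* BF, against 0.831, 1.31 and 1.47 FPKM in *P. schneideri* BF, and was not called without that library. Pyun01G029410, leading the stilbenoid list (3 higher of 7, or 2 without replicate 1), had 219, 16.5 and 90.9 FPKM in *P. qamdoensis* BF, against 5.65, 11.1 and 6.92 FPKM in *P. schneideri* BF, and was not called without it. Pyun02G012060, the 1 DEG of alpha-linolenic acid metabolism, the route to jasmonate, had 20.5, 5.97 and 15.1 FPKM in *P. qamdoensis* BF, against 2.98, 4.94 and 4.44 FPKM in *P. schneideri* BF, and was not called without it. Without replicate 1 that list held 0 higher DEGs and 1 lower. Pyun15G006090, under ABC transporters, had 3.51, 1.73 and 8.24 FPKM in *P. qamdoensis* BF, against 0.95, 0.858 and 0.367 FPKM in *P. schneideri* BF, and was called with and without replicate 1.

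From WF against BF the study's lists were likewise chosen on the *P. qamdoensis* BF libraries, and those given in full held 113 tested genes. Of these, 25 were higher and 4 lower in *P. qamdoensis* under BF, beside 2.4% and 3.12% of all genes. Their median difference was 1.11, against -0.01 under WF and 0.18 under GF. Without replicate 1 the counts were 19 and 6, beside 7.8% of all genes in both directions together, and the median was 0.79. The 28 genes of amino acid biosynthesis included 7 higher DEGs and 0 lower, and 4 and 0 without replicate 1. All 28 had a positive difference under BF, with a median of 1.10 (0.84 without replicate 1), against 0.06 under WF and 0.37 under GF. Of them 0 passed a limma interaction test. At an unadjusted p below 0.05 there were 19 against WF and 9 against GF, where 10.3% and 9.92% of all genes passed. The list was chosen on the *P. qamdoensis* difference between WF and BF, which the interaction against WF contains. Neither the shared direction nor these counts are therefore independent evidence. Pyun01G003650, under ubiquinone biosynthesis, had 89.5, 6.17 and 46.7 FPKM in *P. qamdoensis* BF, against 0.669, 2.26 and 0.776 FPKM in *P. schneideri* BF (3.88 ± 0.69, limma adjusted p = 0.00166). In this gene, as in the 3 called glucan endo-1,3-beta-glucosidases, *P. qamdoensis* BF replicate 2 was the lowest of its group and the nearest to *P. schneideri*.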

How the data were processed

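The authors filtered Illumina reads and aligned them to the *P. yunnanensis* genome, and the submitters' processing notes name HISAT2 and StringTie without versions. The deposited values are FPKM per gene for 39194 genes in 18 libraries. Depth per library and fragments per gene are not given in these values, so precision rests on the spread between libraries.

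FPKM were used as log2(FPKM + 1), with genes kept at a mean of at least 0.5 FPKM over 18 libraries. limma 3.58.1 under R 4.3.3 fitted 1 mean per species and film over all 18 libraries, with eBayes and a trend, two-sided, and Benjamini-Hochberg adjustment over 24273 genes. The fit was tested on simulated data. A DEG had a fold change of at least 1.5 and an adjusted p below 0.01, the study's thresholds.

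Genes were named from the study's annotation by role, the largest called member of each complete pathway list with 6 or more genes, the 2 largest over all genes in each direction called with and without *P. qamdoensis* BF replicate 1, and interaction genes called likewise. Comparison, lists and rules were chosen with earlier results of these data known. Alternatives were another pseudocount, filter, scaling, weighting, trend, replicate block, thresholds, the BF libraries alone, and each library left out.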

Additional observations from a re-analysis of the deposited data

Results flagged for a closer look

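Pyun04G012190 is listed because its species difference under BF exceeded that under WF by 1.12 on the log2 scale in limma's interaction test (adjusted p = 0.00498), or by 1.09 without *P. qamdoensis* BF replicate 1. Pyun06G019200 is listed because its species difference under BF minus that under WF was -2.55 (adjusted p = 5.47e-05), or -2.40 without that library. Single libraries far from their group were not tested for, since each group holds 3.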

How the results depend on the processing

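Of the DEG counts, those under BF moved from 1339 to 650 with a filter of at least 5 FPKM, 874 with library weights, 874 at a fold change of at least 2, 2625 at an adjusted p below 0.05, 117 with only the 6 BF libraries, and, in alternatives chosen after seeing the data without *P. qamdoensis* BF replicate 1, to 426 in the BF libraries alone and 2009 with quantile normalization. Leaving out 1 library at a time gave 725 to 2032. Under WF the counts were 637 with the 5 FPKM filter, 3288 with weights, 2528 at an adjusted p below 0.05, 2292 with quantile normalization without replicate 1, and 837 to 2298 with a library left out; under GF they were 472, 3562, 1922, 1960 and 661 to 1892. The 2 genes for BF against WF became 1 with a pseudocount of 0.1, the 5 FPKM filter, quantile normalization, library weights or the replicate block, 11 at an adjusted p below 0.05, and 1 to 213 with a library left out. The 0 genes for BF against GF became 5 with quantile normalization without replicate 1, and 0 to 120 with a library left out. The cause of these moves was not tested. Same-numbered libraries were not shown to be paired (correlations of their deviations under BF of 0.03, -0.39 and -0.30), and with the replicate block 1104 genes were DEGs under BF, 477 higher and 627 lower. Median-ratio scaling and quantile normalization kept the BF count within 1.5 times, with the higher and lower numbers given above. For 42 named DEGs, 196 of 1201 alternative values lost the call, 113 of them with a library left out, and 0 reversed. Values of several uncalled genes changed sign: HY5 to 0.0062 with quantile normalization without replicate 1; protochlorophyllide reductase to -0.057 in the BF libraries alone without replicate 1, -0.080 with quantile normalization without it, and -0.057 to 0.61 with a library left out; SAUR50 from -0.55 to 0.065 with a library left out; isoamylase 2 to -0.03 and ADP-glucose pyrophosphorylase Pyun09G011970 to 0.02 without replicate 1, and glucan phosphorylase L from -0.35 to 0.42 with a library left out.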
